A study of Bos taurus with 33 samples.

Results

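Collagens, laminins and integrins were followed in pools of bovine oocytes and of the cumulus cells (CC) that surround them. Members were chosen by gene symbol: COL with digits, A and digits, LAMA, LAMB or LAMC with a digit, or ITGA or ITGB with a digit, ITGB1BP genes left out. The rule took 71 of the 17543 genes in the oocyte and CC tables, of which 38 were collagens, 12 laminins and 20 integrins. The remaining gene was ITGB3BP, which encodes a centromere protein and is no integrin, and integrin genes whose alpha chain has a letter, such as ITGAV, were not taken by it. The cows were beef cows whose follicles were synchronized with GnRH and then prostaglandin F2α. In cows without estrus a further GnRH injection induced the gonadotropin surge, and at that time small follicles were no wider than 11.7 mm and large ones no narrower than 12.7 mm. Spontaneous follicles, of 11.7 to 14.0 mm, came from cows that showed estrus, had their own surge and received no further GnRH, so follicle size and the kind of surge are partly bound together in any comparison with spontaneous follicles. Each library was a pool from 4 cumulus-oocyte complexes, collected about 23 h after GnRH or estrus by 1 label and about 20 h by another, and the pools numbered 6 small, 6 large and 4 spontaneous for oocytes and 6, 6 and 5 for CC.

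Collagens are triple helices of alpha chains, of which the fibrillar types build tensile fibers and type IV builds the meshwork of basement membranes. Laminins are cross-shaped trimers of 1 alpha, 1 beta and 1 gamma chain, and they nucleate basement membranes. Integrins are receptors on the cell surface, each made of an alpha and a beta subunit, that bind these ligands and join them to the cytoskeleton. In the ovary a basal lamina of type IV collagen and laminin encloses the granulosa layer, and after the gonadotropin surge CC deposit a new matrix built on hyaluronan.

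Values are CPM, the reads on a gene scaled to the total of its library. The oocyte pools held 7664375 to 17934916 reads and the CC pools 1911600 to 5772431. A gene without a read could have had up to 0.167 to 0.391 CPM in an oocyte pool and 0.52 to 1.57 CPM in a CC pool, the worth of 3 reads, which covers counting error only. The cell types were checked on marker genes. ZP2 and ZP3, which encode zona pellucida proteins, had medians of 4261 and 640.5 CPM in oocyte pools and 0 in CC pools. The cumulus matrix gene TNFAIP6 had medians of 1302 CPM in CC and 7.82 CPM in oocytes. Not every marker was so clear. HAS2, listed for cumulus, had medians of 186 CPM in oocytes and 50.5 CPM in CC. KIT, listed for oocytes, had 407 and 152 CPM. LUM and PDGFRA, listed for stroma, and INSL3, listed for theca, had CC medians of 371, 170 and 360 CPM. Reads of mitochondrially encoded genes took 12.6 to 44.0% of each CC library against 0.846 to 5.0% of each oocyte library. Nothing in the labels says that pools shared no cow or collection day, so the p-values measure the spread between these pools.

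Of the 71 members 60 were listed in both tables, 4 in the oocyte table and 7 in the CC table, and 45 passed the filter for testing (11705 of the 17543 genes did), a level of 5 CPM or more in 4 or more pools of oocytes or in 5 or more of CC. In oocytes 28 members passed (8 collagens, 8 laminins, 11 integrins and ITGB3BP), in CC 36 (17 collagens, 6 laminins, 12 integrins and ITGB3BP), and 19 passed in both. The 26 members that passed in neither included all 3 transmembrane collagens, 6 of the 9 beaded-filament and other network collagens and 5 of the 8 fibril-associated collagens. Collagens were thus 17 of the 36 members tested in CC and 8 of the 28 tested in oocytes.

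**Figure D1:**
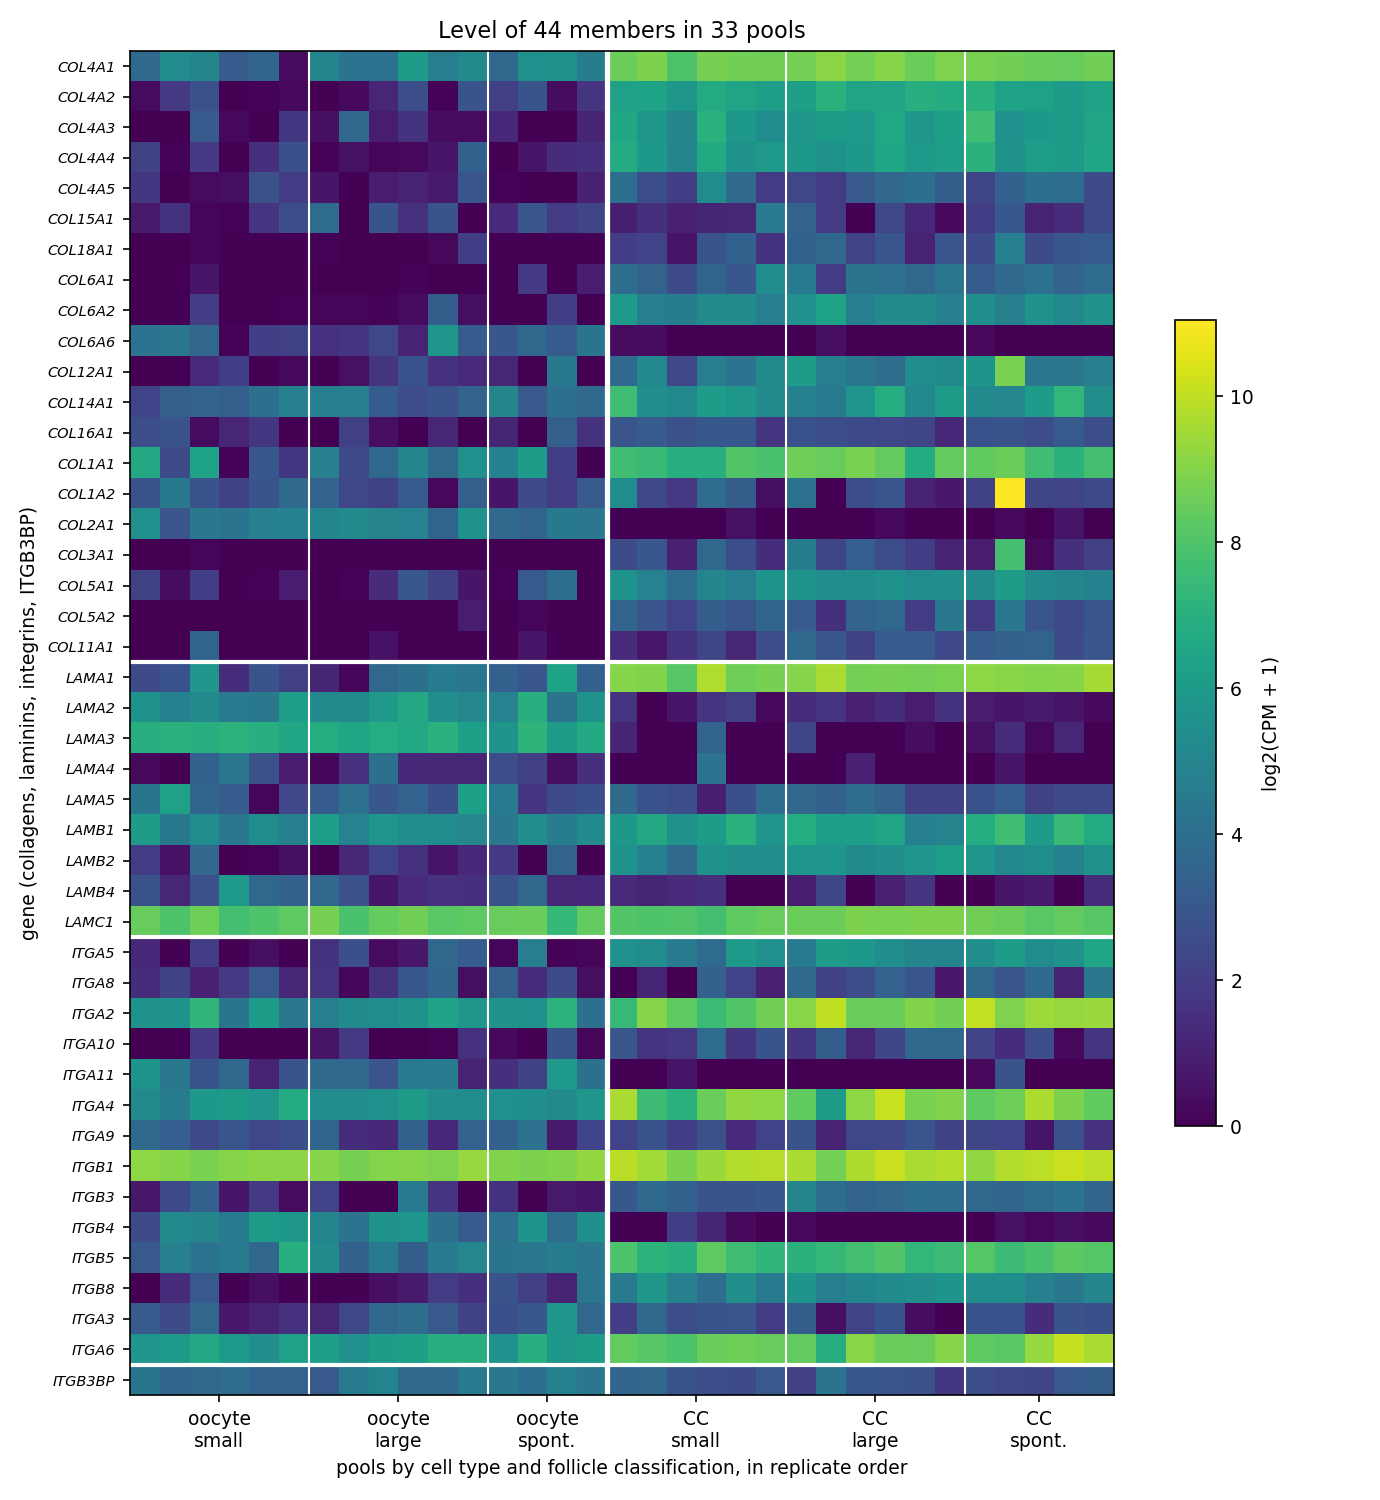
Level of 44 of the 45 members that passed the filter in either cell type (rows, grouped into collagens, laminins, integrins and ITGB3BP) in the 16 oocyte and 17 CC pools (columns, by follicle classification in replicate order), as log2(CPM + 1). Type IV collagens, COL1A1, LAMA1 and ITGA2 are bright in CC, LAMA3 and COL2A1 in oocytes, ITGB1 and LAMC1 in both, and COL1A2 in 1 spontaneous CC pool.

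The first question was which of these genes each cell type carried. Because the oocyte and CC tables were scaled separately, their levels are set side by side without a test. Of the 45 members, 13 were higher in every CC pool than in any oocyte pool (28.9%), against 13.4% of the 11431 transcripts treated the same way. Only 4 were higher in every oocyte pool (8.89%), against 22.9% of all transcripts, and 28 overlapped. A member that passed the filter through 1 cell type was bound to be low in the other, so the 19 that passed in both were also counted: 6 were higher in every CC pool (background 12.7%) and 0 in every oocyte pool (background 22.5%). By family, 9 of 20 collagens, 2 of 10 laminins and 2 of 14 integrins were higher in every CC pool, and 1, 2 and 1 in every oocyte pool. CC alone let 12 of those collagens, 2 of those laminins and 3 of those integrins pass, and oocytes alone 3, 4 and 2. The family counts therefore carry the same limit. In bulk libraries a different number of cells and a different amount of RNA per cell cannot be told apart.

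**Figure D2:**
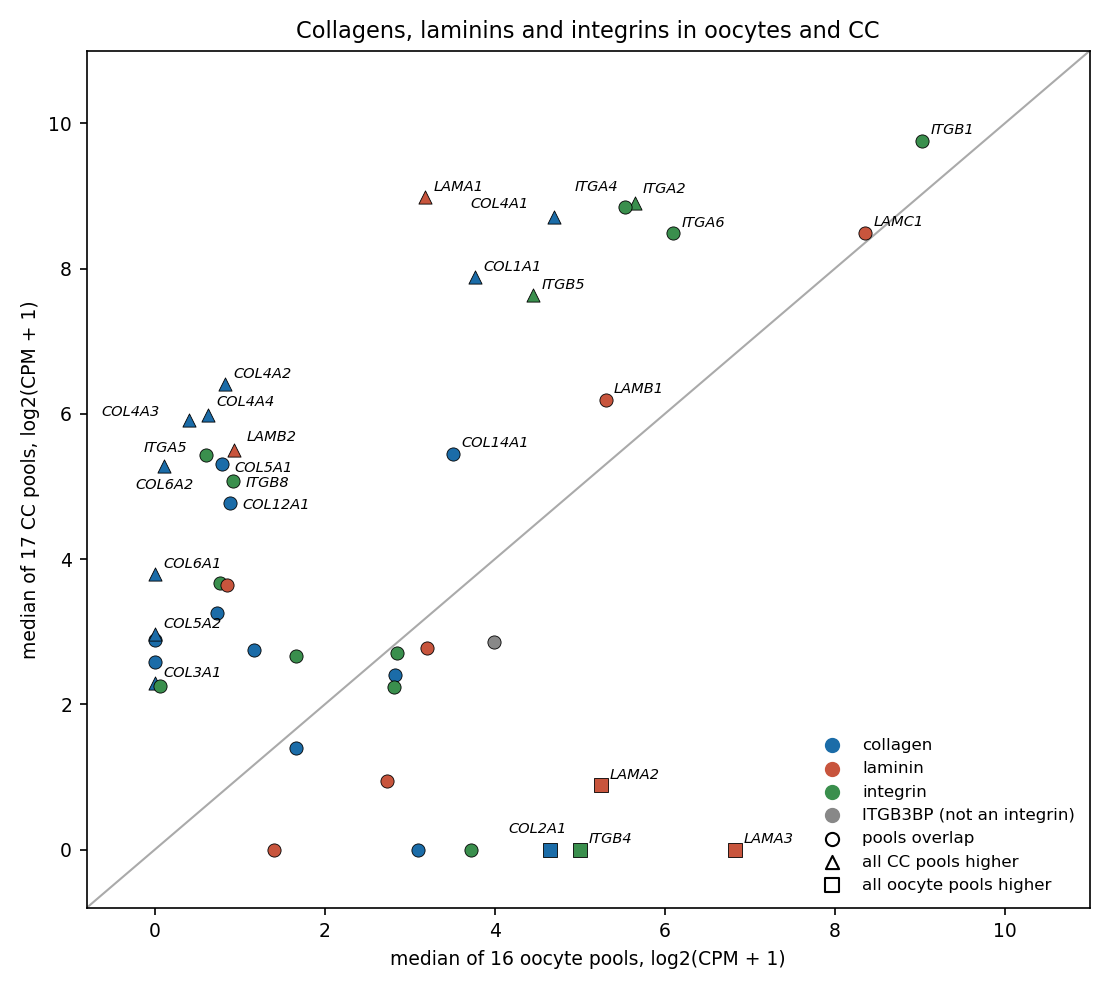
Median level of each of the 45 members in the 16 oocyte pools (horizontal, log2(CPM + 1)) and the 17 CC pools (vertical, same scale), with equal levels on the diagonal. Triangles are the 13 members higher in every CC pool, squares the 4 higher in every oocyte pool and circles the 28 that overlap, and 9 of the triangles are collagens while LAMC1 lies next to the diagonal. Of the 20 collagens shown, 12 passed the filter through CC alone.

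Of the type IV collagen chains, 4 were higher in every CC pool than in any oocyte pool. COL4A1, which with COL4A2 encodes the chains of the common type IV network, ranged from 251 to 552 CPM in CC (median 419) and from 0.258 to 68.3 CPM in oocytes (median 24.9). COL4A2 ranged from 56.5 to 131 CPM in CC (median 84.3) and from 0 to 6.41 CPM in oocytes. COL4A3 and COL4A4, which encode chains of the more restricted network known from the glomerular basement membrane, had CC medians of 59.3 and 62.5 CPM and oocyte medians of 0.324 and 0.547 CPM. COL4A3 and COL4A4 passed the filter through CC alone. COL4A5, another chain of that network, overlapped, at 2.77 to 38.9 CPM in CC and 0 to 6.68 CPM in oocytes, and COL4A6 passed in neither cell type. COL18A1, which encodes the basement membrane collagen from which endostatin is cut, was at 0.523 to 26.3 CPM in CC and had no read in 12 of the 16 oocyte pools.

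Among fibrillar collagens, COL1A1 ranged from 112 to 449 CPM in CC (median 235) and from 0.0558 to 101 CPM in oocytes (median 12.6). COL1A2, the partner chain in type I collagen, did not share this order. Its CC and oocyte pools overlapped, with medians of 4.31 and 6.08 CPM, respectively. COL5A2 (1.78 to 20.5 CPM in CC) had reads in 2 oocyte pools and COL3A1 (0.182 to 218 CPM in CC) in 1, although the lowest COL3A1 value in CC lay below the worth of 3 reads. COL11A1, whose chain also serves in cartilage fibrils, was at 0.616 to 11.8 CPM in CC and had reads in 3 oocyte pools, one of them small replicate 3 with 10.96 CPM. Of the network collagens, COL6A1 and COL6A2 were higher in every CC pool, with CC medians of 12.9 and 37.9 CPM.

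COL2A1 went the other way. This gene encodes type II collagen, the main fibril of cartilage. It ranged from 6.43 to 49.7 CPM in oocytes (median 24.1), with reads in all 16 pools, and no CC pool exceeded 0.544 CPM. COL6A6, a chain of type VI collagen, had a median of 7.59 CPM in oocytes, with 0.0818 CPM in the lowest pool and 55.3 CPM in the highest, and at most 0.356 CPM in CC, so that its lowest oocyte pool lay inside the CC range.

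Of the 5 laminin alpha chains, 1 was higher in every CC pool, 2 were higher in every oocyte pool and 2 overlapped. LAMA1 ranged from 291 to 854 CPM in CC (median 505) and from 0.142 to 83.7 CPM in oocytes (median 8.09). LAMA3 ranged from 51.0 to 145 CPM in oocytes (median 113) and reached 10.6 CPM in CC, where 9 of the 17 pools had no read. LAMA2, the alpha chain best known from muscle and nerve, ranged from 17.9 to 121 CPM in oocytes (median 37.0) and from 0 to 3.21 CPM in CC. LAMA2 and LAMA3 passed the filter through oocytes alone. LAMA5, with medians of 8.25 CPM in oocytes and 5.85 CPM in CC, and LAMA4 overlapped. LAMC1, the gamma chain of most laminins, had medians of 328 CPM in oocytes and 360 CPM in CC, and LAMB1 of 38.6 and 72.3 CPM. Both overlapped between the cell types. LAMB2 was higher in every CC pool (13.1 to 72.7 CPM, against 0 to 11.48 CPM in oocytes). LAMB3, a beta chain that assembles with LAMA3 in epithelia, had reads in 4 of the 16 oocyte pools.

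Of the 14 integrin subunits 11 overlapped between the cell types, against 7282 of the 11431 transcripts. Overlap did not mean like levels: ITGA5, ITGB8, ITGB3 and ITGA10 overlapped with oocyte medians of 0.518, 0.895, 0.704 and 0.0462 CPM and CC medians of 42.4, 32.8, 11.7 and 3.76 CPM. ITGB1, the beta subunit that pairs with most alpha subunits, ranged from 444 to 640 CPM in oocytes (median 521) and from 422 to 1153 CPM in CC (median 867). ITGA2, the alpha subunit of a collagen receptor, was higher in every CC pool (166 to 1040 CPM, median 476) than in any oocyte pool (15.4 to 149 CPM, median 49.1). ITGB5, a partner of the alpha V subunit, was too, at 123 to 319 CPM in CC and 7.46 to 120 CPM in oocytes. ITGA4, which binds fibronectin, and ITGA6, which binds laminin, had CC medians of 459 and 357 CPM and oocyte medians of 45.2 and 67.7 CPM, with 1 CC pool, large replicate 2, inside the oocyte range of each. ITGB4, which pairs with the alpha 6 subunit in hemidesmosomes, was the reverse, at 4.95 to 63.6 CPM in oocytes and at most 3.14 CPM in CC. ITGA11, a collagen-binding alpha subunit, had an oocyte median of 12.2 CPM and no read in 14 of the 17 CC pools, but its pools overlapped.

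Transcripts of CC can reach an oocyte library with adhering cells, so the oocyte median of each gene was also expressed as a percentage of its CC median. Among the cumulus markers it was 0.386% for PTX3, 0.600% for TNFAIP6, 1.65% for INHA and 3.26% for FST. Among the members it was 0.917% for COL4A2, 1.60% for LAMA1, 5.37% for COL1A1, 5.94% for COL4A1, 10.3% for ITGA2 and 10.6% for ITGB5. COL4A2 and LAMA1 lay within the range of those 4 markers, and the other 4 members above it. The remaining cumulus markers ranged wider, at 2.42% for NR5A1, 7.89% for AMH and 21.2% for CYP19A1. All 6 members lay below CYP19A1, whose levels were low (medians of 5.83 CPM in CC and 1.23 CPM in oocytes). These 6 were the members that passed in both cell types and were higher in every CC pool, a choice that itself favors low percentages. Among members whose pools overlapped, ITGA4 was at 9.85%, ITGA6 at 18.9%, LAMB1 at 53.4%, ITGB1 at 60.1% and LAMC1 at 91.0%. HAS2 was higher in oocytes than in CC, and FOXL2 was near 0 in both. The part of adhering cells in the oocyte values was not tested.

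The next question was whether follicle classification altered these genes in CC. A log2 fold change is the later-named minus the first-named classification in mean log2(CPM + 1). A gene was called at a nominal limma p of 0.01 or less. No member had an adjusted p under 0.05 in any comparison, so every call below rests on the nominal p.

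Between small and large CC pools 2 of the 36 members tested were called, both higher in large follicles, against 0.813% of the 9712 transcripts tested in either direction and 0.69% higher in large follicles. LAMC1, the common laminin gamma chain, ranged from 223 to 360 CPM in the 6 small pools (median 269.5) and from 377 to 464 CPM in the 6 large pools (median 455). The groups did not overlap, which held for 0.247% of all transcripts. Its mean was 282 ± 48.3 CPM (SD, n = 6) in small and 433 ± 41.6 CPM (SD, n = 6) in large pools (log2 fold change 0.63, SE 0.16, limma p = 0.000841, adjusted p = 0.999, exact permutation p = 0.00216, the smallest this design allows). LAMC1 passed under every alternative and with any pool left out.

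COL11A1 was the other call, at 0.616 to 5.02 CPM in small pools (median 1.81) and 3.56 to 11.8 CPM in large pools (median 7.36). Its levels were low, and its value in small replicate 2 (0.616 CPM) lay below the worth of 3 reads there (0.923 CPM). The log2 fold change of COL11A1 was 1.31 (SE 0.44, limma p = 0.00757, adjusted p = 0.999, exact permutation p = 0.0108). The groups overlapped, and the call was lost with a pseudocount of 0.1 CPM (log2 fold change 1.70) and without small replicate 1, 2, 3 or 5 or large replicate 1, 2, 4 or 5, with log2 fold changes from 1.12 to 1.31. Another 4 members had an unadjusted p under 0.05, which 4.00% of all transcripts reached: ITGA2, ITGB3, COL1A1 and ITGA8, with log2 fold changes of 0.80, 0.86, 0.77 and 1.34. COL1A1 had a mean of 186 ± 58.9 CPM (SD, n = 6) in small and 330 ± 115 CPM (SD, n = 6) in large pools (exact permutation p = 0.0260). All 6 members were higher in large follicles. Over the 36 members the median log2 fold change was 0.17, and over all transcripts 0.05. Without small replicate 3 these medians were 0.0162 and -0.0395. That pool had the fewest reads (1911600) and the largest mitochondrial share (44.0%) of the CC pools. Calls over all transcripts were higher in large pools for 67 of 79, which became 44 of 70 under median-of-ratios scaling and 27 of 67 with CPM recomputed without mitochondrially encoded genes, and LAMC1 and COL11A1 were the 2 members called, higher in large pools, under each.

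**Figure D3:**
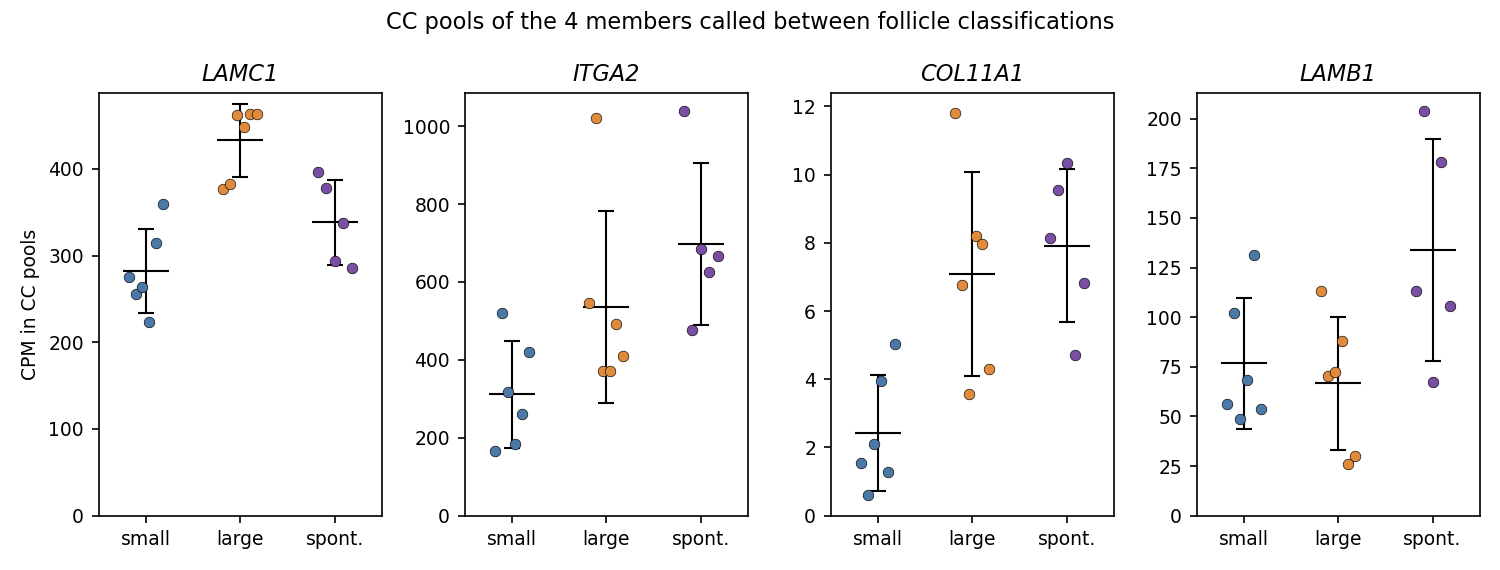
CPM in CC pools of the 4 members called between follicle classifications, with 1 point per pool and the mean and SD of each classification as bars. LAMC1 separates small pools (223 to 360 CPM) from large pools (377 to 464 CPM), ITGA2 and COL11A1 are lower in most small pools, and LAMB1 is highest in spontaneous pools.

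Between small and spontaneous CC pools 2 of 36 members were called, both higher in spontaneous follicles, against 2.38% of all transcripts in either direction and 2.28% higher in spontaneous follicles. ITGA2 was at 166, 519, 319, 183, 261 and 420 CPM in small replicates 1 to 6 and at 1040, 476, 685, 625 and 666 CPM in spontaneous replicates 1 to 5. Only small replicate 2 lay within the spontaneous range. The means were 311 ± 138 CPM (SD, n = 6) and 698 ± 208 CPM (SD, n = 5), with a log2 fold change of 1.24 (SE 0.28, limma p = 0.000299, adjusted p = 0.182, exact permutation p = 0.00649). COL11A1 was at 8.15, 9.56, 10.3, 4.72 and 6.83 CPM in spontaneous pools, of which 1 lay inside the small range. Its log2 fold change was 1.49 (SE 0.41, limma p = 0.00198, adjusted p = 0.308, exact permutation p = 0.00649). Both calls held under every alternative and with any pool left out.

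A further 5 members had an unadjusted p under 0.05 in this comparison, against 8.55% of all transcripts, and all were higher in spontaneous pools. They were ITGA8, ITGA6, LAMB1, ITGB3 and COL18A1, with log2 fold changes of 1.88, 0.77, 0.78, 0.66 and 1.08. ITGA6, the laminin-binding alpha subunit, had a mean of 330 ± 55.9 CPM (SD, n = 6) in small and 630 ± 334 CPM (SD, n = 5) in spontaneous pools, of which 3 lay above every small pool. The direction was shared widely. The median log2 fold change was 0.26 over the members and 0.16 over all transcripts, or 0.128 and 0.0751 without small replicate 3. Over all transcripts 221 of the 231 calls were higher in spontaneous pools. With CPM recomputed without mitochondrially encoded genes, whose share had a median of 23.5% in small and 15.6% in spontaneous pools, that became 67 of 120 calls, and the medians became 0.0899 and -0.00484. Under median-of-ratios scaling it became 78 of 126, with medians of 0.107 and 0.0114. ITGA2 and COL11A1 were again the 2 members called under both. The summed cumulus markers had medians of 4062, 3473 and 5198 CPM in small, large and spontaneous pools, and their part in these differences was not tested.

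Between large and spontaneous CC pools 1 of 36 members was called, higher in spontaneous follicles, against 1.66% of all transcripts in either direction and 1.45% higher in spontaneous follicles. LAMB1, a laminin beta chain, was at 113, 70.5, 72.3, 87.8, 26.1 and 30.0 CPM in large replicates 1 to 6 and at 113, 204, 67.3, 178 and 106 CPM in spontaneous replicates 1 to 5. The groups overlapped, with means of 66.7 ± 33.6 CPM (SD, n = 6) and 134 ± 55.9 CPM (SD, n = 5) and a log2 fold change of 1.07 (SE 0.36, limma p = 0.00829, adjusted p = 0.567, exact permutation p = 0.0411). The call was lost without a filter, under median-of-ratios scaling (log2 fold change 0.97), with CPM recomputed without mitochondrially encoded genes (1.01), with both count tests (0.91) and without large replicate 5 or 6 or spontaneous replicate 1, 2, 4 or 5. Under both rescalings and both count tests LAMC1 was called instead, lower in spontaneous pools, where by CPM its log2 fold change was -0.36 (SE 0.14, limma p = 0.0215, exact permutation p = 0.0195). ITGB5 had a log2 fold change of 0.47 (SE 0.18, limma p = 0.0197, exact permutation p = 0.0368), and together with LAMB1 and LAMC1 it made 3 members under 0.05, against 7.07% of all transcripts. The split of calls over all transcripts moved here too, from 141 of 161 higher in spontaneous pools to 62 of 116 under median-of-ratios scaling and 83 of 121 without mitochondrially encoded genes.

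**Figure D4:**
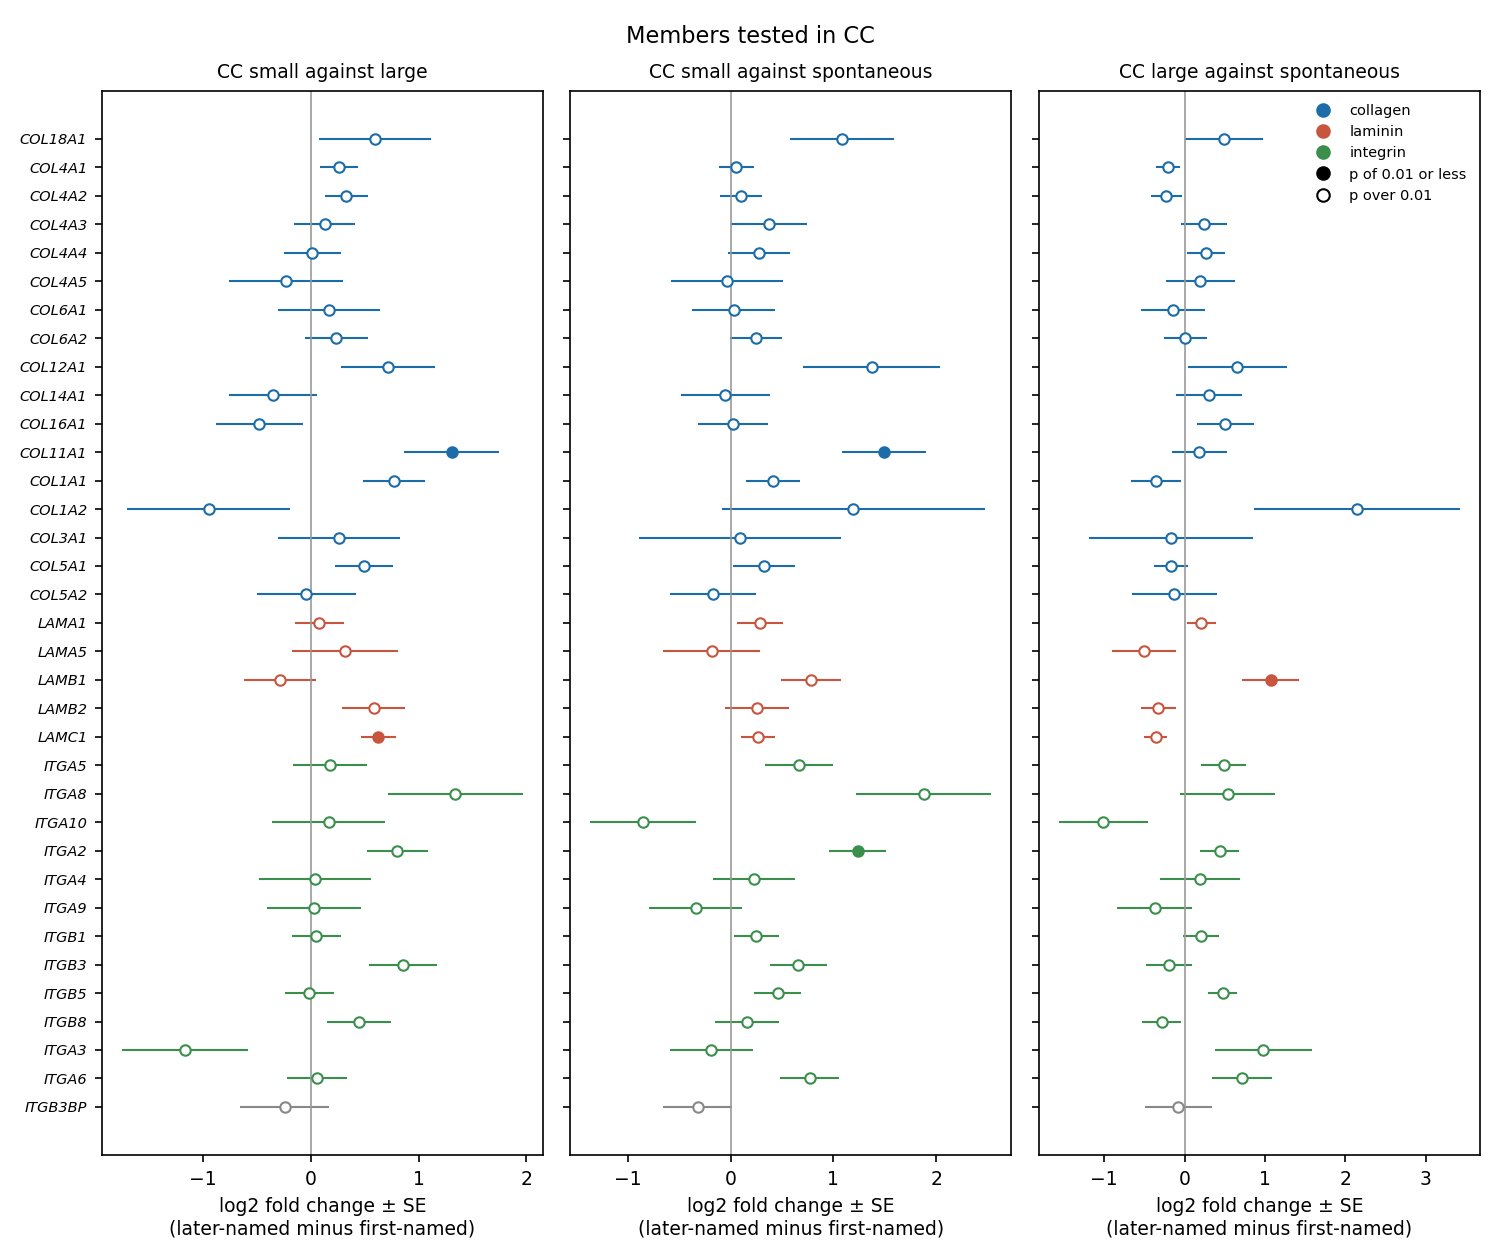
Log2 fold change and SE of 35 of the 36 members tested in CC for the 3 comparisons of follicle classifications, on the log2(CPM + 1) scale. Filled points have a nominal limma p of 0.01 or less: LAMC1 and COL11A1 for small against large, ITGA2 and COL11A1 for small against spontaneous and LAMB1 for large against spontaneous, and COL1A2 has the widest error bars in both comparisons with spontaneous pools.

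These 3 comparisons share pools, so the levels of LAMC1 and ITGA2 are also given side by side. LAMC1 had means of 282, 433 and 338 CPM in small, large and spontaneous CC, highest in large. ITGA2 had means of 311, 535 and 698 CPM, of which the large and spontaneous means did not differ beyond their spread (limma p = 0.0958, exact permutation p = 0.290), and 1 large pool, replicate 2, stood at 1020 CPM. Without that pool ITGA2 was called, higher in spontaneous CC. LAMA1, COL4A1 and ITGB1 were not called in any comparison. LAMA1 had means of 499, 513 and 581 CPM, COL4A1 of 392, 467 and 402 CPM and ITGB1 of 773, 810 and 915 CPM in the same order.

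In oocytes no member was called. The counts were 0 of 28 between small and large pools, 0 of 28 between small and spontaneous pools and 0 of 28 between large and spontaneous pools, against 0.655%, 0.774% and 0.943% of the 10076 transcripts tested by limma in either direction and 0.447%, 0.526% and 0.397% higher in the later-named. With shares this low, a count of 0 among 28 members is not read as an absence of change in them. The count tests also called 0 members in each. At an unadjusted p under 0.05, 1, 1 and 0 members passed, against 4.11%, 4.51% and 4.87% of all transcripts. COL4A1 was the first, with 17.3 ± 15.0 CPM (SD, n = 6) in small and 32.6 ± 19.2 CPM (SD, n = 6) in large pools (log2 fold change 1.35, SE 0.60, limma p = 0.0332, exact permutation p = 0.152). Without small replicate 2 it was called, the only call among the fits that left out 1 oocyte pool. ITGA3, a laminin-binding alpha subunit, was the other, with 4.71 ± 4.39 CPM (SD, n = 6) in small and 19.8 ± 23.6 CPM (SD, n = 4) in spontaneous pools (log2 fold change 1.67, SE 0.78, limma p = 0.0400, exact permutation p = 0.0619). Its spontaneous pools were at 5.51, 6.95, 55.0 and 11.7 CPM, so 1 pool carried most of the mean.

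COL2A1 had the smallest p between large and spontaneous oocyte pools. It ranged from 10.9 to 49.7 CPM in large pools (median 31.5) and stood at 12.7, 11.2, 21.1 and 19.9 CPM in spontaneous pools (limma p = 0.0749, exact permutation p = 0.0571). LAMA3 and ITGB1 were not called in any comparison. LAMA3 had means of 122 ± 17.8, 104 ± 19.9 and 91.1 ± 41.9 CPM (SD, n = 6, 6 and 4) in small, large and spontaneous pools, and ITGB1 of 532 ± 45.5, 520 ± 66.0 and 517 ± 69.1 CPM (SD, n = 6, 6 and 4). The median log2 fold change of the 28 members was 0.09, -0.01 and 0.02 in the 3 comparisons. Within a classification the median SD of log2(CPM + 1) was 1.08 over the 28 members and 0.661 over all transcripts in oocytes, and 0.638 over 36 members and 0.480 over all transcripts in CC. Members and all transcripts were not matched for level. In oocytes the SD of single members ranged from 0.161 for ITGB1 (median 521 CPM) to 2.19 for COL1A1 (median 12.6 CPM).

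Chains that assemble with each other were then compared across pools. Pairs were chosen from known assemblies after the levels had been seen, 19 in CC and 16 in oocytes, and their 35 p-values were adjusted together. For 6 of the 35 pairs both the Pearson and the Spearman adjusted p were under 0.05. In CC the closest pair was COL4A3 and COL4A4, with Pearson r = 0.90 (permutation p = 1e-05, the smallest that 100000 permutations allow, adjusted p = 0.00035) and Spearman rho = 0.81 (permutation p = 0.00016, adjusted p = 0.0028) over 17 pools. These genes lie next to each other among protein-coding genes of the bovine RefSeq annotation (ARS-UCD2.0). The correlation was 0.89 within the 6 small pools and 0.83 within the 6 large pools, 0.86 without the 2 pools farthest from the median of COL4A3, and 0.90 with CPM recomputed without mitochondrially encoded genes. Spontaneous replicate 1 held the highest value of both, at 201 and 135 CPM. With COL4A5, a chain of the same network, r was 0.31 for COL4A3 and 0.35 for COL4A4 (permutation p = 0.225 and 0.168). The adjusted p-values were 0.493 and 0.420. Within small pools these correlations were 0.94 and 0.72, and within large pools 0.28 and 0.68.

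ITGB1 followed ITGA4 and ITGA6 in CC, while with the other alpha subunits tested r lay between -0.25 and 0.26, or between -0.46 and 0.24 with CPM recomputed without mitochondrially encoded genes. With ITGA4, Pearson r was 0.87 (permutation p = 4e-05, adjusted p = 0.0007) and Spearman rho 0.81 (permutation p = 0.00014, adjusted p = 0.0028), with r = 0.90 within small and 0.99 within large pools and 0.65 without the 2 pools farthest from the median of ITGB1. With ITGA6, Pearson r was 0.76 (permutation p = 0.00036, adjusted p = 0.0042) and Spearman rho 0.74 (permutation p = 0.00115, adjusted p = 0.0134), with r = 0.56 without the 2 farthest pools. Large replicate 2 had the lowest value of all 3 genes, at 422 CPM for ITGB1, 64.1 CPM for ITGA4 and 118 CPM for ITGA6, while its ITGA2 and LAMA1 were the highest of the large pools at 1020 and 805 CPM. With ITGA2 the correlation of ITGB1 was -0.21 (permutation p = 0.417, Spearman rho = -0.08, permutation p = 0.760, adjusted p = 0.627 and 0.886), and within large pools it was -0.93. ITGA4, ITGA6 and ITGB1 were not called between classifications by limma with all pools, but ITGA6 was called between small and spontaneous CC by DESeq2 and by limma without spontaneous replicate 1 or 2.

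COL4A1 and COL4A2, also neighbors in that annotation, had r = 0.68 in CC (permutation p = 0.00237, adjusted p = 0.0207, Spearman rho = 0.69, permutation p = 0.00278, adjusted p = 0.0243). That relation rested on the 2 pools farthest from the median of COL4A1, without which r was 0.38, and it was 0.84 within small and 0.17 within large pools. COL6A1 and COL6A2, neighbors there too, had r = -0.35 in CC (permutation p = 0.162, adjusted p = 0.420). Their Spearman rho was -0.13 (permutation p = 0.619, adjusted p = 0.872), and r was 0.0059 within small and -0.82 within large pools. No correlation of COL1A1 with COL1A2 was detectable in CC (r = 0.20, permutation p = 0.468, rho = 0.19, permutation p = 0.467, adjusted p = 0.656 and 0.743). In oocytes LAMC1 followed LAMA2 (r = 0.65, permutation p = 0.00619, adjusted p = 0.0433, rho = 0.65, permutation p = 0.00812, adjusted p = 0.0474) and LAMB1 (r = 0.64, permutation p = 0.00797, adjusted p = 0.0465, rho = 0.66, permutation p = 0.00649, adjusted p = 0.0454). Without the 2 pools farthest from the median of LAMA2 the first r was 0.65, and without the 2 farthest from that of LAMB1 the second was 0.72. The former kept spontaneous replicate 3, the lowest pool of both LAMA2 and LAMC1 (17.9 and 162 CPM). Within small and large pools r was 0.68 and 0.45 with LAMA2 and 0.73 and 0.84 with LAMB1. LAMA1 in CC had r = 0.26 with LAMB1 and -0.23 with LAMC1 (permutation p = 0.314 and 0.374, adjusted p = 0.580 and 0.611). In CC, LAMB1 and LAMC1 had r = -0.18 (permutation p = 0.488, adjusted p = 0.657, rho = -0.09, permutation p = 0.720, adjusted p = 0.886). The difference between the cell types was not tested.

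One CC pool stood apart in interstitial collagens. In spontaneous replicate 2, COL1A2 reached 2117 CPM, against 0 to 40.8 CPM in the other 16 CC pools. COL3A1 was at 218 CPM there, against at most 24.3 CPM elsewhere, and COL12A1, a collagen of fibril surfaces, at 446 CPM, against at most 67.0 CPM. COL1A1 did not take part: it was at 374 CPM in that pool and up to 449 CPM in others. The same pool held the highest PDGFRB (19.3 CPM, against at most 1.21 CPM) and THY1 (9.56 CPM, against at most 2.55 CPM), markers of pericytes and fibroblasts. The 6 stroma markers together reached 1436 CPM there and 226 to 1287 CPM in the other CC pools. DCN at 60.7 CPM and TCF21 at 1.37 CPM lay within the range of the other pools. The summed white blood cell markers were also highest in that pool, at 220 CPM, against at most 206 CPM. Endothelial markers stood at 60.1 CPM, against at most 68.9 CPM. The part of other cells in these collagen values was not tested. COL1A2 was accordingly at 427 ± 945 CPM (SD, n = 5) in spontaneous pools, an SD above the mean, and it was not called (limma p = 0.112 and exact permutation p = 0.238 against large pools). edgeR's quasi-likelihood test on recovered reads did call it, higher in spontaneous pools, against both small and large pools, while DESeq2 did not.

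**Figure D5:**
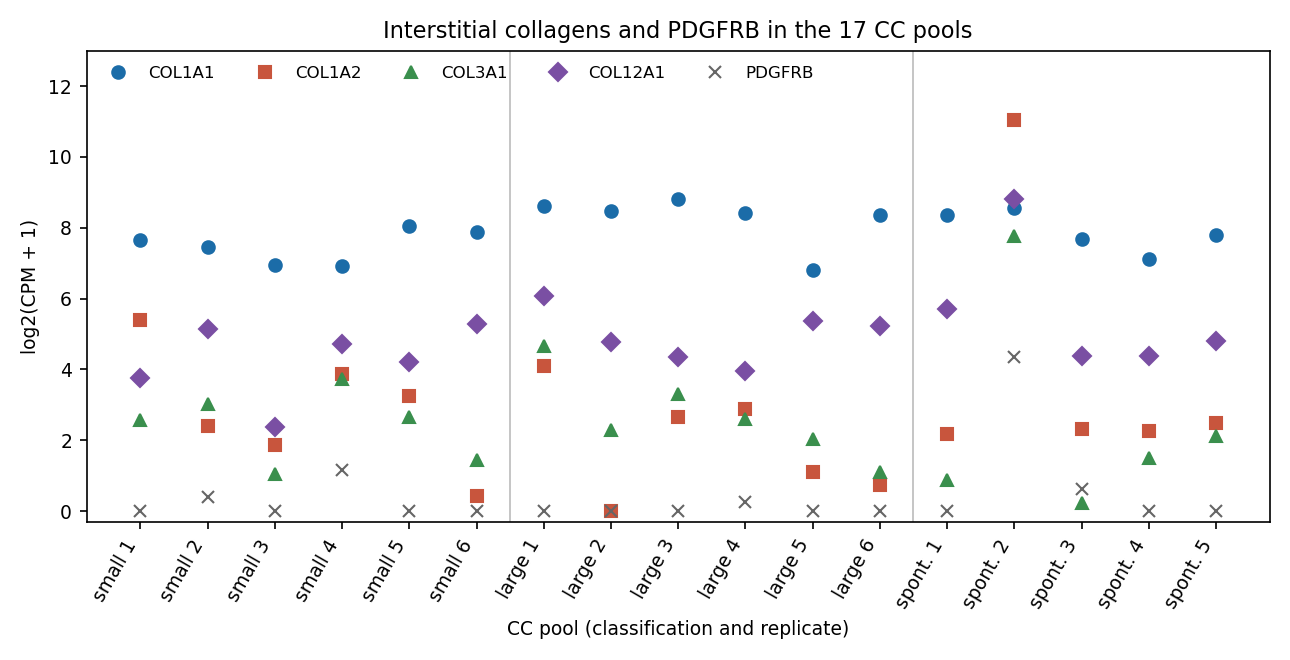
COL1A1, COL1A2, COL3A1, COL12A1 and PDGFRB in each of the 17 CC pools, as log2(CPM + 1), by classification and replicate. COL1A2, COL3A1, COL12A1 and PDGFRB are highest in spontaneous replicate 2 (2117, 218, 446 and 19.3 CPM), while COL1A1 there (374 CPM) lies within the range of the other pools.

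Among oocyte pools, spontaneous replicate 3 held the highest LAMA1 (83.7 CPM), ITGA3 (55.0 CPM) and ITGA11 (60.2 CPM) and the lowest LAMC1 (162 CPM). HAS2 was higher in oocytes than in CC, so the cumulus markers were summed without it, and ranged from 13.1 to 283 CPM over the 16 oocyte pools (median 62.9). They summed to 164 CPM in spontaneous replicate 3, whose theca markers, nearly all INSL3, stood at 119 CPM, against at most 38.3 CPM in the other oocyte pools, and whose stroma markers stood at 73.5 CPM. INSL3 had a median of 360 CPM in CC. Small replicate 3 had the next highest LAMA1 (52.6 CPM), with cumulus markers at 191 CPM, and large replicate 6, with cumulus markers at 283 CPM, had LAMA1 at 19.0 CPM. The part of other cells in these values was not tested.

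The other genes of these pathways, on 5 lists of integrin alphas with a letter, further ligands, further matrix receptors, integrin adaptors and kinases, and assembly enzymes, gave 66 tested genes in oocytes and 75 in CC. Calls among them also rest on the nominal p, as none of the called genes had an adjusted p under 0.05. They are given by CPM without rescaling. In CC 2, 6 and 1 of the 75 were called between small and large, small and spontaneous, and large and spontaneous pools, all higher in the later-named, against 0.813%, 2.38% and 1.66% of all transcripts, most of which were also higher in the later-named. ITGAV, the alpha V subunit that partners ITGB5, was called in both comparisons with small CC, with 491 ± 111 CPM (SD, n = 6) in small, 754 ± 163 CPM (SD, n = 6) in large and 831 ± 311 CPM (SD, n = 5) in spontaneous pools (log2 fold change 0.62 to large, with limma p = 0.00461 and exact permutation p = 0.0152, and 0.72 to spontaneous pools, with limma p = 0.00509 and exact permutation p = 0.00866). PLOD2, which hydroxylates collagen lysines for crosslinking, was called in the same 2 comparisons, with 234 ± 52.6, 372 ± 87.3 and 381 ± 108 CPM (SD, n = 6, 6 and 5). Its small and spontaneous pools did not overlap, which held for 1.16% of all transcripts.

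PCOLCE2, an enhancer of procollagen processing, was higher in spontaneous CC than in both other classifications. Its means were 261 ± 159, 254 ± 111 and 548 ± 88.4 CPM (SD, n = 6, 6 and 5) in small, large and spontaneous pools, with log2 fold changes to spontaneous of 1.28 (limma p = 0.00106, adjusted p = 0.285, exact permutation p = 0.0108) and 1.19 (limma p = 6.98e-05, adjusted p = 0.193, exact permutation p = 0.00649). The prolyl hydroxylase P4HA1 (log2 fold change 0.52), the adhesive glycoprotein THBS1 (2.15) and the integrin adaptor NEDD9 (1.03) were called higher in spontaneous than in small CC. Their limma p-values were 0.00784, 0.00167 and 0.00817 (adjusted p = 0.418, 0.295 and 0.418), and the pools of each overlapped. THBS1 was at 261 ± 286 CPM (SD, n = 6) in small and 912 ± 769 CPM (SD, n = 5) in spontaneous pools (exact permutation p = 0.0325). In oocytes 2 of 66 were called, both between large and spontaneous pools, against 0.943% of all transcripts there. TNC, the matrix protein tenascin C, was at 6.85 ± 8.61 CPM (SD, n = 6) in large and 35.6 ± 36.8 CPM (SD, n = 4) in spontaneous pools (log2 fold change 2.29, limma p = 0.00262, exact permutation p = 0.0238). DDR2, a receptor kinase for fibrillar collagens, was at 21.9 ± 7.78 CPM (SD, n = 6) in large and 7.06 ± 3.60 CPM (SD, n = 4) in spontaneous pools, which did not overlap (log2 fold change -1.54, limma p = 0.00664, adjusted p = 0.968, exact permutation p = 0.00952). Pools did not overlap for 0.913% of all transcripts in that comparison.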

How the data were processed

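RNA from pools of oocytes or CC was amplified and sequenced by the authors, who used Hisat2 for alignment to UMD3.1 and featureCounts for reads per Ensembl gene, and deposited CPM in 1 oocyte and 1 CC table. Columns were matched to pools by name, with 0 left unmatched. Genes were joined by Ensembl identifier, which settled 1 laminin whose symbol differed between tables (ENSBTAG00000022635, called LAMB2 here) and ITGB3, named in 1 table only. No lengths or sequences of the authors' build were used, so levels are not compared between genes and no coordinates are given. The CPM of every pool were whole multiples of 1 read for 100% of values (tolerance 0.01 reads), and recovered reads served the count tests.

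The filter kept transcripts at 5 CPM or more in 4 or more pools of oocytes, or 5 or more of CC. They were tested with limma (trend option) on log2(CPM + 1), two-sided, within each cell type and for 2 classifications at a time. The pseudocount makes fold changes of low genes smaller. A call was a nominal p of 0.01 or less. With small oocyte pools it also had to hold without small replicate 3, after the study's own procedure. Adjusted p-values are Benjamini-Hochberg over all transcripts tested, and exact permutation tests of mean CPM were two-sided. The script was tested on simulated data. Other settings tried were the filter left off or set to a mean of 1 CPM, a pseudocount of 0.1 CPM, scaling by median of ratios, 13 mitochondrially encoded genes left out of CPM, 1 fit over all 3 classifications, a replicate block, edgeR and DESeq2 on recovered reads, reads thinned to 1911600 per pool (median of 10 draws), and each pool left out.

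Members and lists were chosen with earlier results of these data known. Members named were those called, with the smallest p of a comparison, among the 4 highest medians of a family and cell type, at 5 CPM in 1 cell type with no read in most pools of the other, or COL18A1. Others were named after their values were seen. The values of 1 member are not reported here and it is left out of the plots by gene name. Software was R 4.3.3, limma 3.58.1, edgeR 4.0.16, DESeq2 1.42.0 and Python 3.11.15.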

Additional observations from a re-analysis of the deposited data

Results flagged for a closer look

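Each group of 4 to 6 pools was examined for a pool far from the others (Dixon's test), over the 24 named members. Of 108 groups 16 were flagged (14.8%). The nominal rate of the test, about 1 in 20, assumes normal values. It was run on CPM without logs, and groups of different genes share pools. No share over all transcripts stands beside the 14.8%, so it is not read as an excess in these genes. In CC, COL14A1, a fibril-associated collagen, stood high in small replicate 1 (204 CPM, next 68.0 CPM) and in spontaneous replicate 4 (160 CPM, next 68.8 CPM). COL4A2 was high in spontaneous replicate 1 (129 CPM, next 82.7 CPM), COL6A1 in small replicate 6 (40.7 CPM, next 14.4 CPM), and COL18A1 and COL5A2 in spontaneous replicate 2 (26.3 and 20.5 CPM, next 7.72 and 6.61 CPM), the pool with the highest COL1A2. Large replicate 2 stood high in ITGA2 (1020 CPM, next 546 CPM) and LAMA1 (805 CPM, next 520 CPM). On the low side were COL1A1 in large replicate 5 (112 CPM, next 331 CPM) and ITGA3 in spontaneous replicate 3 (1.63 CPM, next 5.51 CPM).

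In oocytes, spontaneous replicate 3 was flagged 3 times, for high LAMA1 (83.7 CPM, next 9.43 CPM), high ITGA3 (55.0 CPM, next 11.7 CPM) and low LAMC1 (162 CPM, next 338 CPM). LAMA1 was also high in small replicate 3 (52.6 CPM, next 5.997 CPM), COL6A6 in large replicate 5 (55.3 CPM, next 8.28 CPM) and ITGA4 in large replicate 4 (63.2 CPM, next 47.0 CPM).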

How the results depend on the processing

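Members called between small and large CC numbered 2, and 1 with a pseudocount of 0.1 CPM and 4 with all 3 classifications in 1 fit. Between small and spontaneous CC they numbered 2, and 4 with a mean of at least 1 CPM and with edgeR's quasi-likelihood test. Between large and spontaneous CC they numbered 1, and 2 with edgeR's test. The 1 member was LAMB1 in the main fit, but LAMC1, lower in spontaneous pools, under both rescalings, with DESeq2 and with both count tests. Without a filter it was LAMA2, also lower in spontaneous pools. A count that stayed the same could therefore hold another member. The median log2 fold change of all transcripts between large and spontaneous CC, 0.110, became 0.0140 under median-of-ratios scaling and 0.0518 without mitochondrially encoded genes, and between small and spontaneous CC, 0.161, it became 0.0114 and -0.00484. Outside the left-out pools, 9 counts and medians moved and 93 did not, where a count moved by over 1.5 times or a median by over 1 SD between pools. That SD is wide: between small and large CC the median of all transcripts went from 0.0452 to -0.00992 under median-of-ratios scaling and -0.0643 without mitochondrially encoded genes, and that of members from 0.174 to 0.128 and 0.0749. Of 50 fold changes of called members, 42 kept their call, 8 lost it and 0 reversed. Under the replicate block 4 members were called between small and spontaneous CC (with ITGA6 and COL12A1) and 2 (with ITGA6) between large and spontaneous CC, and between small and large CC ITGA2 was called in place of COL11A1. Replicate numbers were not taken as pairs, since deviations of pools with the same number correlated between -0.190 and 0.224.

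With each pool left out in turn, members called ranged from 0 to 1, 0 to 0 and 0 to 0 in the oocyte comparisons (small and large, small and spontaneous, large and spontaneous) and from 1 to 3, 2 to 4 and 0 to 2 in CC. The 1 member in oocytes came without small replicate 2. In CC, 1 member was called between small and large pools without small replicate 1 or 3 or large replicate 1 or 2, 4 between small and spontaneous pools without small replicate 4 or 5, and between large and spontaneous pools 2 without large replicate 2 or 4 and 0 without large replicate 5 or 6 or spontaneous replicate 1, 4 or 5. The median log2 fold change of members ranged from 0.0835 to 0.302, -0.111 to 0.213 and -0.0829 to 0.0862 in oocytes and from 0.0162 to 0.268, 0.128 to 0.382 and 0.0827 to 0.205 in CC, and that of all transcripts from 0.0267 to 0.0562, 0.0340 to 0.0630 and -0.00284 to 0.0198 in oocytes and from -0.0395 to 0.0817, 0.0751 to 0.195 and 0.0882 to 0.132 in CC. Members higher in every CC pool ranged from 13 to 15 and in every oocyte pool from 4 to 5. These were 11 and 4 with thinned reads and 15 and 3 without mitochondrially encoded genes. The causes of these shifts were not tested.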
